A study of Mus musculus with 13 samples.

Results

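The genes *Ikzf1*, *Gata3*, *Tcf7*, *Lef1*, *Bcl11b*, *Runx3*, *Tox*, *Il7r*, *Ptprc* and *Themis* encode regulators of the development of T cells in the thymus. They were chosen by name, with earlier results of these data known but without a threshold on any measured value. They are 10 of 22329 protein-coding genes that could be placed on the called sequence of the mouse genome (mm9). All 10 were found in the gene annotation and placed. Each gene was located by the midpoint of its longest annotated transcript, and the share of the gene body (the span of that transcript) in each kind of domain was computed as well.

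The measurements come from sat4C, a 4C protocol that uses the major satellite repeat of mouse pericentromeric heterochromatin as viewpoint and thereby recovers DNA that lay close to a chromocenter, the cluster of these repeats in the nucleus. The authors called every 4C fragment end as belonging to a pericentromere-associated domain (PAD) or not (non-PAD), and 1 call per cell type for each of 399232 fragment ends was analysed here. The thymus was whole disaggregated tissue from C57BL/6 mice (3 adult males, sequenced as 6 samples), the embryonic stem cells (ESC) were 3 replicates of the IB10 line from 129/Ola mice, and 2 replicates each of neural precursor cells (NPC) derived from these ESC and of astrocytes (AC) derived from the NPC in culture completed the set. The labels name no genetic change in any of them. The thymus also differs from the 3 cultured cell types in strain, in its source from an animal and in sequencing. Its labels name an Illumina GAII beside the HiSeq for each replicate, and those of the cultured cell types name the HiSeq alone. These differences cannot be told apart from that of cell type.

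The calls were already combined over replicates. No replicate values or read counts were analysed here, so depth is unknown, no SD or test can be given, and every value below describes 1 consensus per cell type. A consensus over a population also does not tell in how many cells a gene lay at a chromocenter. The thymus contains thymocytes of several stages together with stromal cells, and the label of the tissue could not be checked against marker genes since no expression was measured.

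Chromocenters gather the pericentromeric repeats of several chromosomes into compact heterochromatin, and regions of the chromosome arms differ in how often they lie next to them. T cell development starts when a blood progenitor enters the thymus and receives Notch signals, upon which transcription factors such as TCF1 and GATA3 start the T lineage program and BCL11B seals the choice. Interleukin 7 keeps the early cells alive, and signals from the T cell receptor later select the cells that survive as CD4 or CD8 lineage cells.

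Borders between domains lie between neighboring fragment ends with different calls. In 2 of the genes, *Ptprc* and *Themis*, a border crossed the gene body in at least 1 cell type, and a border lay in front of *Lef1* in ESC. The sequences of the fragment ends on either side of these 4 borders are given because they place the borders inside *Ptprc* and *Themis* and the ESC border nearest to *Lef1*, whose own call does not depend on it. Each is 60 bases of the plus strand of mm9 that starts at the restriction site of the fragment end, and capitals mark recognition sites of the enzymes used to make the fragment ends (CAATTG for MfeI and CATG for NlaIII). The lower and the upper end at the *Ptprc* border start 47 bp apart, so that the sequence of the lower (PAD) end runs into the MfeI site of the upper (non-PAD) end.
*Ptprc*, ESC, non-PAD end (chr1:140003325-140003384): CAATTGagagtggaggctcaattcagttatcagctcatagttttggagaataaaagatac
*Ptprc*, ESC, PAD end (chr1:140003278-140003337): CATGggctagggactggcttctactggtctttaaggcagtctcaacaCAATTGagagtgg
*Themis*, ESC, non-PAD end (chr10:28503517-28503576): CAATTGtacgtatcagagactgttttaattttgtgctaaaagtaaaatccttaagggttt
*Themis*, ESC, PAD end (chr10:28503708-28503767): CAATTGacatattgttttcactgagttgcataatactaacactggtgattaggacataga
*Themis*, thymus, non-PAD end (chr10:28478841-28478900): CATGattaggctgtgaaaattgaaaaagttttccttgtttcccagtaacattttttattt
*Themis*, thymus, PAD end (chr10:28480974-28481033): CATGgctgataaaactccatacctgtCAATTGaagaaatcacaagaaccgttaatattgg
*Lef1*, ESC, non-PAD end (chr3:130794287-130794346): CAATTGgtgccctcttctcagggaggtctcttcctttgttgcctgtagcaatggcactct
*Lef1*, ESC, PAD end (chr3:130797776-130797835): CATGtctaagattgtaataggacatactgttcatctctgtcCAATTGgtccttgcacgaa

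PADs and non-PADs each held regulators in ESC, AC and thymus. By midpoint, 5 of the 10 were in PADs in ESC, where 46.5% of all placed protein-coding genes were. In NPC all 10 were in PADs (68.5% of all genes), in AC 6 (34.9% of all genes) and in the thymus 6 (26.1% of all genes). The difference in count between the regulators and all genes was therefore small in ESC and larger in NPC, AC and thymus, but 10 genes chosen by name are no sample of all genes, and no test was made. NPC PADs were also the most extensive, with 68.0% of the called sequence against 48.4% to 52.5% in the other cell types. Over the 399232 fragment ends, the NPC calls equalled the thymus calls at 53.3% of the ends (Pearson's r = 0.053), the ESC calls at 68.0% (r = 0.354) and the AC calls at 66.4% (r = 0.322), while AC and thymus had the same call at 75.7% (r = 0.513). Neighboring ends share a domain, so these values are a description. They bear on every count that uses the NPC calls.

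*Ikzf1*, *Gata3*, *Tox* and *Il7r* were in PADs in all 4 cell types (14.8% of all genes). *Tcf7*, *Bcl11b* and *Runx3* were in PADs in NPC only (23.9%), *Lef1* in ESC and NPC only (12.2%), and *Ptprc* and *Themis* in NPC, AC and thymus but not in ESC (1.26%). No gene of the set was a non-PAD in all 4 cell types, as 20.1% of all genes were. The status was the same in all 4 cell types for 4 genes (34.8% of all genes), and in ESC, AC and thymus for 7 (61.2%). By midpoint, AC and thymus gave the same call for 10 of 10 regulators (77.8% of all genes). The 3 genes that differed between ESC and thymus by midpoint therefore also differed between ESC and AC. This depends on the placement of *Themis*, whose transcription start site was PAD in AC but non-PAD in ESC and thymus. Of its 35 fragment ends, 12 were non-PAD in the thymus, and all were PAD in AC.

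Between ESC and thymus, *Lef1* went from a PAD to a non-PAD, as did 26.5% of all genes. *Ptprc* and *Themis* were in non-PADs in ESC and in PADs in the thymus, where the share of all genes was 6.06%. This count of 2 depends on the placement. By transcription start site it was 1 (*Ptprc*), and when any overlap with a PAD counted it was 0, since part of each of these gene bodies was in a PAD in ESC.

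**Figure D1:**
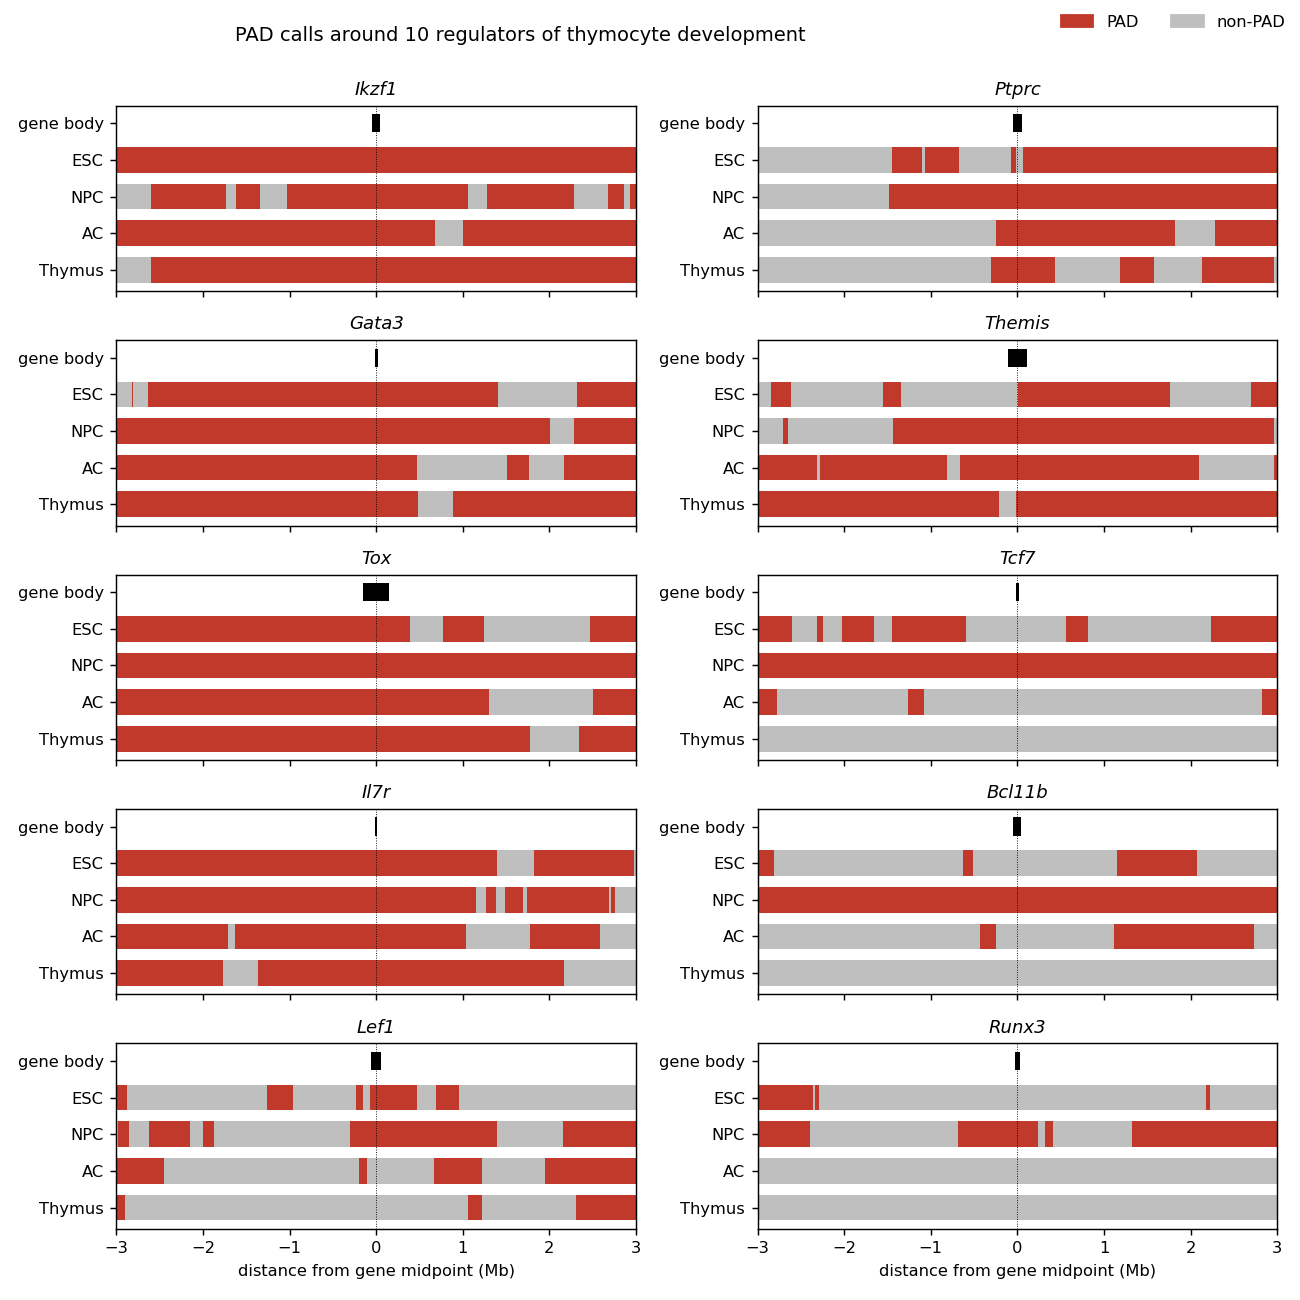
PADs (red) and non-PADs (gray) in the 4 cell types within 3 Mb of the midpoint of each gene (x axis, Mb, in genome direction), with the gene body in black. The left column holds the genes that lay in PADs in all 4 cell types and *Lef1*, and the right column holds *Ptprc*, *Themis* and the genes that lay in PADs in NPC only.

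The genes of the early T lineage program had different domain surroundings. *Ikzf1* encodes IKAROS, a zinc finger factor needed for all lymphoid lineages, and spans chr11:11586216-11672929 on the plus strand. It lay in a PAD of 14.5 Mb in ESC, the largest PAD around any of the 10 genes, which reached to the first called fragment end of Chromosome 11. The PAD that held *Ikzf1* measured 7.50 Mb in the thymus, 3.82 Mb in AC and 2.08 Mb in NPC. The gene lay 5851 kb from the nearest border in ESC, 2596 kb in the thymus, 1025 kb in NPC and 678 kb in AC, so its whole body of 86.7 kb was inside PADs in every cell type.

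*Gata3*, whose product is required from the first stages of T cell development and later for CD4 lineage cells, spans chr2:9779501-9811661 on the minus strand. Its PADs measured 4.05 Mb in ESC, 7.04 Mb in NPC, 3.72 Mb in AC and 4.56 Mb in the thymus. The nearest border was 476 kb from its midpoint in AC and 479 kb in the thymus, on the same side of the gene (at 10271114 and 10274760), whereas it was 1409 kb away in ESC and 2008 kb in NPC. The upper part of the PAD beyond the AC and thymus border thus changed call between cell types while *Gata3* itself did not.

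*Tcf7* encodes TCF1, a target of Notch signals and a DNA-binding partner of beta-catenin, and spans chr11:52066106-52096681 on the minus strand. It was in a non-PAD of 1.15 Mb in ESC, of 3.90 Mb in AC and of 7.71 Mb in the thymus, and in a PAD of 8.25 Mb in NPC. Its distance to the nearest border was 556 kb in ESC, 1074 kb in AC and 3829 kb in the thymus. In NPC it lay 3125 kb inside the PAD. *Tcf7* therefore lay deep in its domain on either side, and none of its 4 fragment ends differed in call from the midpoint in any cell type.

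*Lef1*, the other T cell member of the TCF/LEF family, spans chr3:130813389-130927274 on the plus strand and differed from *Tcf7* in ESC. It lay in an ESC PAD of 546 kb (61 fragment ends), which began 17.4 kb upstream of its transcription start site, at the border whose sequences are given above. In NPC it lay in a PAD of 1.70 Mb. In AC it lay in a non-PAD of 769 kb, 106 kb from the nearest border, and in the thymus in a non-PAD of 3.96 Mb, 1065 kb from the nearest border. All 20 fragment ends in the body of *Lef1* were called PAD in ESC and NPC, and all 20 were called non-PAD in AC and thymus. The share of PAD in 1 Mb around the gene was 63.3% in ESC, 80.2% in NPC, 9.45% in AC and 0% in the thymus, so the switch was not limited to the gene body.

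*Bcl11b*, which encodes a zinc finger factor required for commitment to the T lineage, spans chr12:109148613-109241812 on the minus strand. It was in a PAD of 9.12 Mb in NPC and in non-PADs of 1.66 Mb in ESC, 1.37 Mb in AC and 15.8 Mb in the thymus. The midpoint was 517 kb from the nearest border in ESC, 251 kb in AC and 5838 kb in the thymus. The thymus non-PAD held 182 protein-coding genes, against 16 in ESC and 15 in AC.

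*Runx3* and *Tox* act later, in the divergence of the CD8 and CD4 lineages. *Runx3* encodes a Runt domain factor that establishes the CD8 lineage, and spans chr4:134676567-134733905 on the plus strand. It lay in the largest domains of the set, a non-PAD of 23.8 Mb with 391 protein-coding genes in AC and a non-PAD of 20.6 Mb with 351 in the thymus. In ESC the non-PAD measured 4.47 Mb. In NPC it lay in a PAD of 933 kb, 243 kb from the nearest border. It was 10221 kb from the nearest border in AC and 8698 kb in the thymus, the farthest of the 10 genes in these cell types.

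*Tox* encodes an HMG box protein needed for CD4 lineage cells. It spans chr4:6613500-6917946 on the minus strand and was the longest gene of the set, with 304 kb and 76 fragment ends. All 76 ends were called PAD in all 4 cell types. The PAD reached to the first called fragment end of Chromosome 4 in ESC (4.15 Mb), AC (5.06 Mb) and thymus (5.53 Mb), and measured 7.07 Mb in NPC. The nearest border lay 393 kb from the midpoint in ESC, 1299 kb in AC, 1775 kb in the thymus and 3492 kb in NPC. *Tox* and *Runx3* thus lay on the same chromosome with opposite calls in ESC, AC and thymus.

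**Figure D2:**
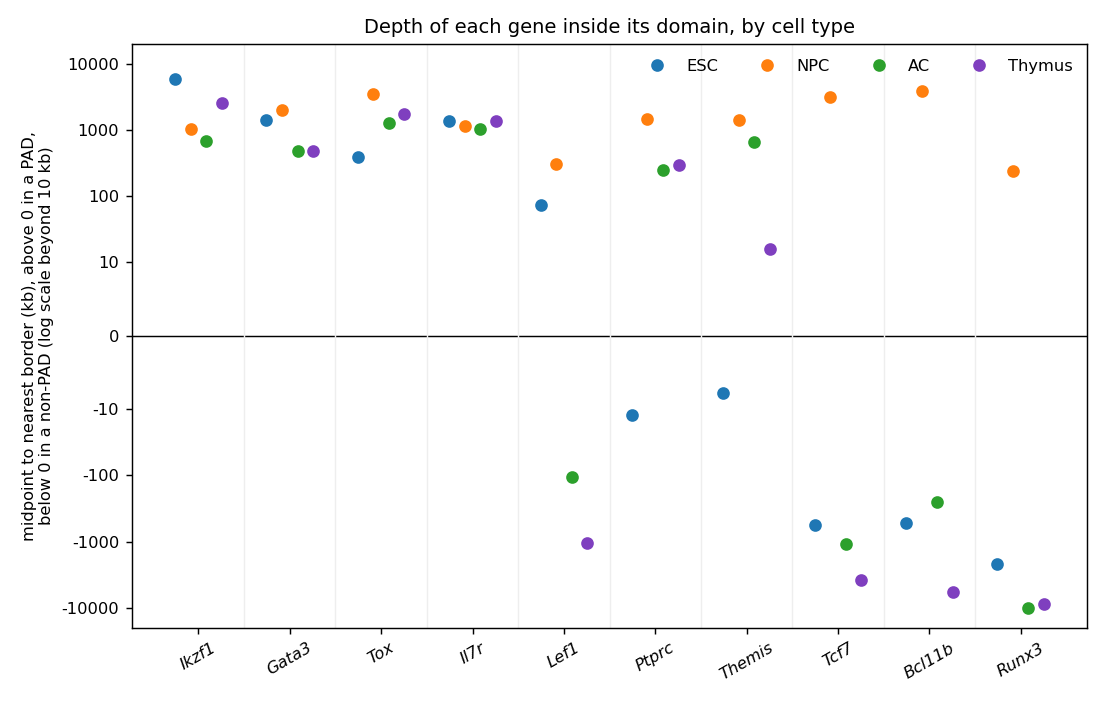
Distance from the midpoint of each gene to the nearest border (y axis, kb, linear up to 10 kb and logarithmic beyond), above 0 in PADs and below 0 in non-PADs, with 1 point per cell type. *Ikzf1*, *Gata3*, *Tox* and *Il7r* lie above 0 in every cell type, and the points closest to 0 are *Themis* in ESC and thymus (7.72 and 16.0 kb) and *Ptprc* in ESC (12.4 kb).

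The surface receptor genes were *Il7r*, a PAD gene in all cell types, and *Ptprc*, which was divided by a border in ESC. *Il7r* encodes the alpha chain of the interleukin 7 receptor and spans chr15:9435916-9459631 on the minus strand. Its PADs measured 7.75 Mb in ESC, 6.60 Mb in NPC, 2.66 Mb in AC and 3.53 Mb in the thymus. The nearest border was between 1037 kb (AC) and 1394 kb (ESC) from the midpoint, the narrowest range of distances among the 10 genes. In ESC the PAD began at the first called fragment end of Chromosome 15.

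*Ptprc* encodes CD45, a receptor tyrosine phosphatase that activates the kinases of T cell receptor signaling, and spans chr1:139959438-140071882 on the minus strand. All 24 fragment ends of its body were called PAD in NPC, AC and thymus, in PADs of 4.68 Mb, 2.07 Mb and 730 kb. In ESC, 13 ends were called non-PAD and 11 PAD, and 39.0% of the body was in a PAD. The 13 ends formed a non-PAD of 71.4 kb (chr1:140003302-140074716) that held the transcription start site, 2.83 kb from the upper border, and no other protein-coding gene by midpoint. The lower border lay in an intron of the longest annotated transcript, 12.4 kb from the midpoint. PADs adjoined this interval on both sides, with 63.1 kb (15 ends) below and 3269 kb (493 ends) above, and the PAD below was followed by another non-PAD of 601 kb. In 1 Mb around *Ptprc*, 50.4% of the sequence was PAD in ESC. The 5′ part of *Ptprc*, from the start site to 68.6 kb into the gene, was thus a short non-PAD between a small and a large PAD in ESC, and the 3′ part was PAD in all 4 cell types.

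THEMIS is a protein of T cell receptor signaling that is needed for positive selection of thymocytes. *Themis* spans chr10:28388166-28603621 on the plus strand, and its 35 fragment ends were all called PAD in NPC (PAD of 4.40 Mb) and AC (2.76 Mb). A border crossed the gene in ESC and in the thymus. In the thymus, the 12 ends nearest to the start site were called non-PAD and the 23 others PAD, so that 57.4% of the body was in a PAD of 10.3 Mb. In ESC, 16 ends were non-PAD and 19 were PAD, with 46.4% of the body in a PAD.

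The 2 borders within *Themis* lay in introns of the longest annotated transcript and were 23.7 kb apart, at 28479908 in the thymus and at 28503613 in ESC. The midpoint fell between them, 16.0 kb from the thymus border and 7.72 kb from the ESC border. The different call of *Themis* by midpoint in ESC and thymus rests on the 4 fragment ends between the borders, which cover 11.0% of the gene body. The start site was in a non-PAD in both cell types, and the 19 ends at the 3′ side were PAD in both. *Ptprc* and *Themis* were the genes of the set with a border inside the body in ESC (3.7% of all genes had one), and *Themis* was the one in the thymus (2.35%). A longer body has more room for a border, and these bodies measured 112 kb and 215 kb, where the median of all genes was 15.3 kb. The part of length was not tested.

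**Figure D3:**
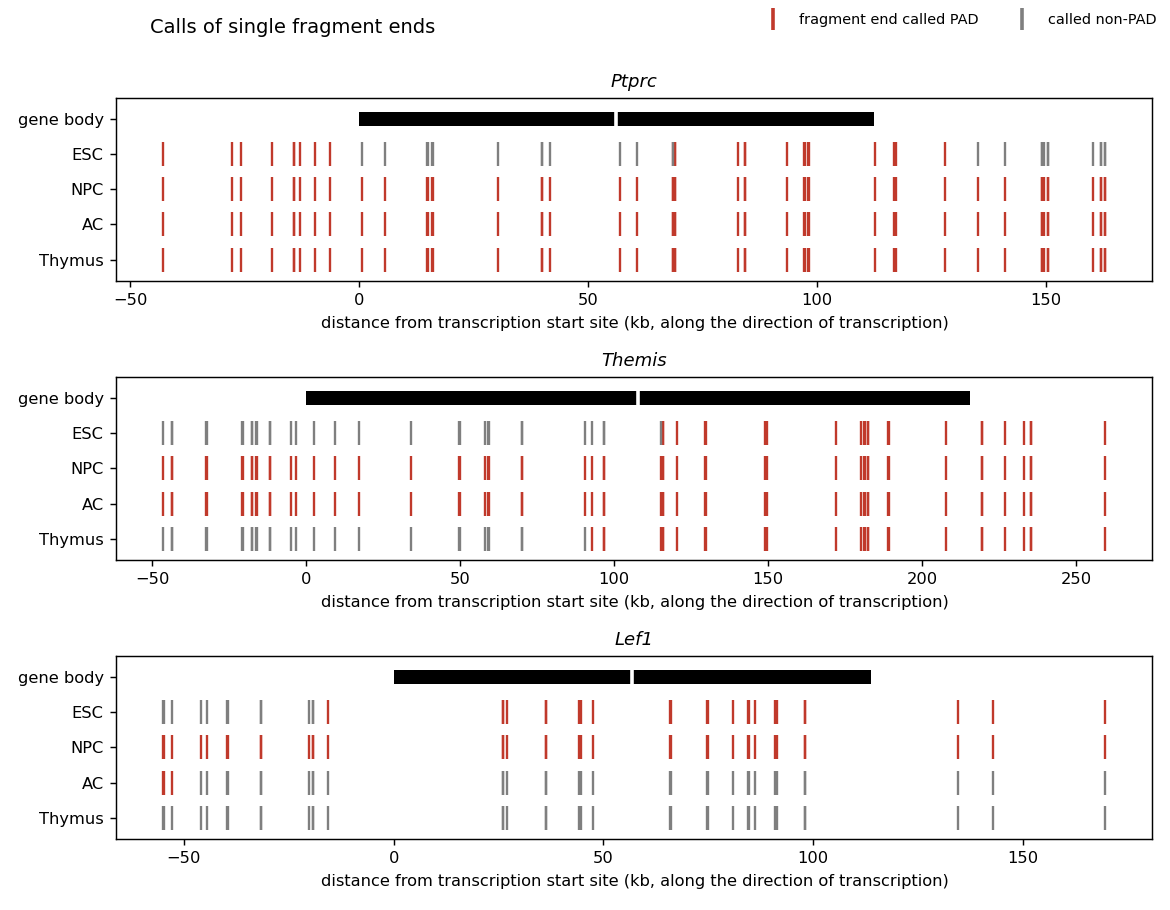
Calls of single fragment ends (red PAD, gray non-PAD) along *Ptprc*, *Themis* and *Lef1* in the 4 cell types, by distance from the transcription start site (x axis, kb, in the direction of transcription), with the gene body in black and its midpoint as a white mark. In ESC the 5′ part of *Ptprc* is non-PAD, the borders of *Themis* in ESC and thymus lie on either side of the midpoint, and all 20 ends within *Lef1* switch between ESC or NPC and AC or thymus.

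The depth of the regulators inside their domains was not the same in all cell types. The median distance to the nearest border was 536 kb in ESC, 1458 kb in NPC, 672 kb in AC and 1569 kb in the thymus, where the median over all placed genes was 477, 618, 683 and 982 kb. The domain that held a regulator had a median size of 2856 kb in ESC, 5641 kb in NPC, 3240 kb in AC and 6515 kb in the thymus, where the median over all genes was 2466, 2864, 3317 and 4767 kb. In AC the regulators were thus below all genes in both medians, which take PADs and non-PADs together. By PADs alone, the median domain of the regulators measured 4152 kb in ESC, 5641 in NPC, 3240 in AC and 5045 in the thymus. For all genes in PADs it measured 2277, 3618, 2519 and 2729 kb. By non-PADs alone, it measured 1146 kb in ESC, 2634 in AC and 11780 in the thymus for the regulators. For all genes in non-PADs it measured 2702, 3871 and 5500 kb. In ESC, 5 of the regulators were wholly in PADs, 3 wholly in non-PADs and 2 crossed a border (3.7% of all genes did). In the thymus 5 were wholly in PADs, 4 wholly in non-PADs and 1 crossed a border (2.35%). The share of all genes wholly in either kind of domain was not counted, so the counts of whole bodies are a description only.

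The 4 genes that were PAD in all cell types were also those nearest to the centromere. Mouse chromosomes are telocentric, and the midpoint lay 3.76 Mb from the first called fragment end for *Tox*, 6.35 Mb for *Il7r*, 6.79 Mb for *Gata3* and 8.61 Mb for *Ikzf1*. The other 6 lay between 25.5 Mb (*Themis*) and 137 Mb (*Ptprc*) away. Of all genes within the first 10 Mb, 25.2% were PAD in all 4 cell types, within the first 20 Mb 29.2%, and beyond 20 Mb 12.4%. Most genes next to the centromere were thus not PAD in all cell types. In the thymus, 49.8% of the genes within the first 10 Mb were in PADs and 7.63% of those at 130 to 140 Mb, where *Ptprc* (137 Mb, PAD) and *Runx3* (132 Mb, non-PAD) lay. The part that position has in the calls of the regulators was not tested.

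**Figure D4:**
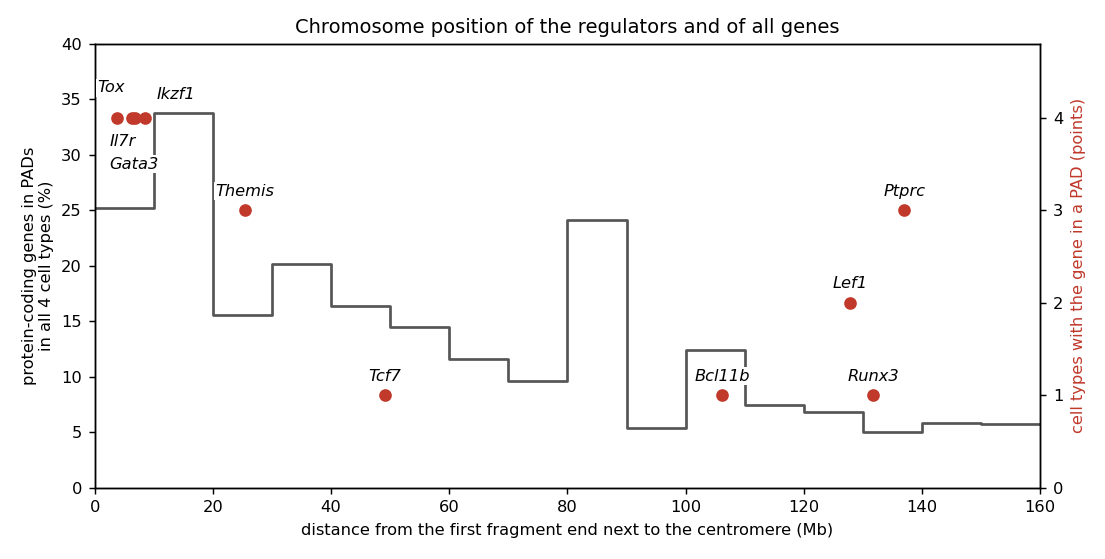
Share of all placed protein-coding genes that were PAD in all 4 cell types (line, left axis, percent) by distance from the first called fragment end next to the centromere in bins of 10 Mb, and the number of cell types with each regulator in a PAD (points, right axis). *Tox*, *Il7r*, *Gata3* and *Ikzf1* lie within the first 10 Mb, where the line is at 25.2%.

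Gene density and base composition around the regulators are given beside the calls, and their part in them was not tested. Within 1 Mb centered on the midpoint, *Ikzf1*, *Gata3*, *Tox* and *Il7r* had between 3 and 9 protein-coding genes (themselves included) and a GC content between 39.6% and 43.0%, where the medians over all placed genes were 16 genes and 44.1%. *Themis* (6 genes, 38.4% GC) and *Ptprc* (4 genes, 39.2% GC) had gene counts in the same range and a GC content below it. *Tcf7*, *Bcl11b* and *Runx3* had 12, 8 and 14 genes within 1 Mb, and a GC content of 46.5%, 48.5% and 49.3%. *Lef1* had 7 genes and 44.6% GC. Over all genes of the same call pattern, the median GC content was 40.2% for PAD in all 4 cell types, 39.6% for PAD in all but ESC, 45.6% for PAD in ESC and NPC and 46.9% for PAD in NPC only. The regulators thus had GC values on the same side of the median of all genes as the genes that shared their calls. *Gata3* (43.0%) and *Lef1* (44.6%) were near that median. The share of all genes for which the same held was not computed, so this is a description only. Gene density went the other way for 4 of them. The median number of genes within 1 Mb was 19 for PAD in NPC only and 21 for PAD in ESC and NPC, above the median of all genes, whereas *Tcf7*, *Bcl11b*, *Runx3* and *Lef1* were below it. Each of the 10 gene bodies was longer than the median of all genes (15.3 kb), from 23.7 kb for *Il7r* to 304 kb for *Tox*.

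Other protein-coding genes shared the domain of a regulator in all 4 cell types in 8 of 10 cases. The share of all genes with such neighbors was not computed, so this count is a description only. Sharing all 4 domains is the likeness used here to name neighbors (up to 3 of the nearest by midpoint). *Ikzf1* shared its domains with 8 genes, among them *Fignl1*, *4930512M02Rik* and *Ddc*, and *Gata3* with 7, of which *4930412O13Rik*, *9230102O04Rik* and *Taf3* were nearest. *Il7r* shared its domains with 18 genes (*Capsl*, *Spef2* and *Ugt3a2* nearest) and *Tox* with 17 (*Nsmaf*, *Sdcbp* and *Cyp7a1*, the last 568 kb away). *Runx3* had 15 such neighbors (*Clic4*, *Srrm1* and *Syf2*), *Bcl11b* 14 (*Setd3*, *Ccnk* and *Ccdc85c*), *Tcf7* 13 (*Skp1a*, *Olfr1371* and *Vdac1*) and *Lef1* 4, of which *Hadh*, *Cyp2u1* and *Sgms2* lay within 165 kb. *Themis* and *Ptprc*, the genes with borders inside their bodies, had none.

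PADs and non-PADs alternate, so the first gene past a border has the opposite call unless the next domain holds no gene midpoint. In the thymus this was so for 7 of the 10 regulators, which follows from the way domains are formed and is no trait of these genes. Beyond this border, the nearest protein-coding gene was *Sfmbt2* for *Gata3* (610 kb from the midpoint of *Gata3*), *Chd7* for *Tox* (1941 kb), *Wdr70* for *Il7r* (1512 kb), *Upp1* for *Ikzf1* (2602 kb) and *Nr5a2* for *Ptprc* (1217 kb), all of them in thymus non-PADs. For genes in thymus non-PADs it was *Gm13103* for *Runx3* (8735 kb) and *Gm7112* for *Bcl11b* (6306 kb), both in PADs, and *Gria1* for *Tcf7* (4903 kb) and *Gm5549* for *Lef1* (1432 kb), both in non-PADs, and no gene midpoint lay in the PAD between. For *Themis* it was *Ptprk*, 440 kb away and itself in the next thymus PAD, so the thymus non-PAD that reached into *Themis* held no midpoint of a protein-coding gene.

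A list of paralogs, genes of the same families, was placed in the same way. The list was chosen by name and does not cover each family in full. Of 30 paralogs, 29 were placed (*Themis2* was not placed under this name), of which 9 were in PADs in ESC (31.0%), 18 in NPC (62.1%), 6 in AC (20.7%) and 5 in the thymus (17.2%). None was PAD in all 4 cell types (14.8% of all genes), 9 were non-PAD in all 4 (20.1%) and 7 were PAD in NPC only (23.9%). Between ESC and thymus 8 went from PAD to non-PAD (26.5%) and 4 the reverse (6.06%).

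By family, the IKAROS relatives *Ikzf3* and *Ikzf4* were non-PAD in all 4 cell types, *Ikzf5* was PAD in all but the thymus, and *Ikzf2* was PAD in all but ESC. Of the GATA factors, *Gata1* was non-PAD throughout, *Gata2* was PAD in ESC and NPC, *Gata4* was PAD in all but the thymus, *Gata5* in NPC only and *Gata6* in the thymus only. *Tcf7l1* shared the calls of *Lef1*, and *Tcf7l2* those of *Tcf7*. *Runx1* was PAD in NPC only, as was *Runx3*, and lay 5.81 kb from a border in ESC, while *Runx2* was PAD in ESC and NPC. *Tox2* was PAD in NPC only and *Tox3* and *Tox4* in no cell type, in contrast to *Tox*. *Bcl11a* was PAD in ESC and NPC, unlike *Bcl11b*.

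Of the cytokine receptor genes related to *Il7r*, *Il2rg* (the common gamma chain), *Il4ra* and *Il21r* were non-PAD in all 4 cell types, *Il2rb* and *Il9r* were PAD in NPC only, *Il2ra* was PAD in NPC and thymus, and *Crlf2*, which pairs with IL-7Rα in the receptor for thymic stromal lymphopoietin, was PAD in all but NPC. Of the receptor phosphatase genes related to *Ptprc*, *Ptpro* was non-PAD throughout, *Ptprb* PAD in NPC only, *Ptprj* in ESC and NPC, *Ptprm* in all but the thymus and *Ptprk* in all but ESC. *Ptprk* lay next to *Themis*, within the same NPC PAD of 4.40 Mb, and had the same 4 calls.

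**Figure D5:**
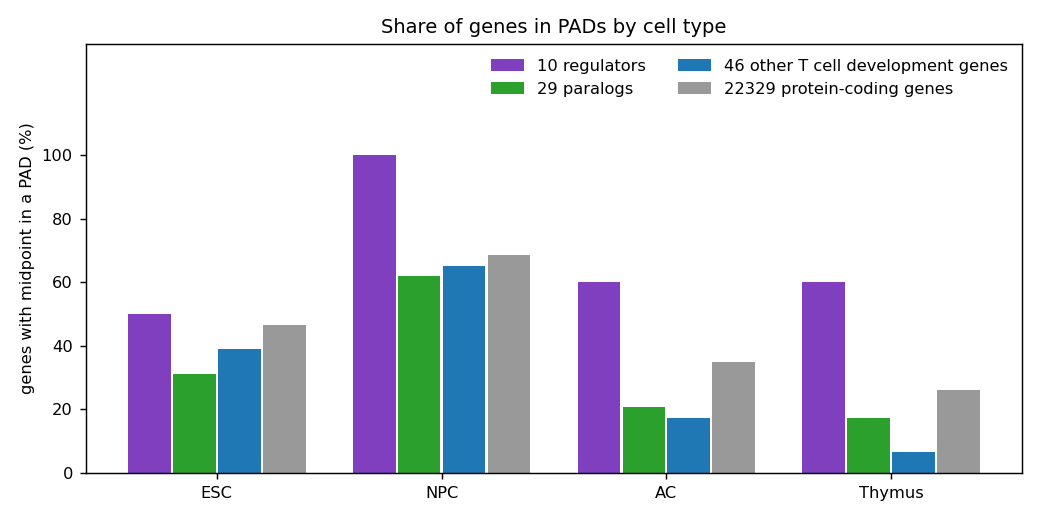
Share of genes with their midpoint in a PAD (y axis, percent) in each cell type for the 10 regulators, 29 paralogs, 46 other genes of T cell development and all 22329 placed protein-coding genes. The thymus bars stand at 60% for the regulators (6 of 10), 17.2%, 6.52% and 26.1%.

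A list of 48 other genes of T cell development covered the Notch pathway, partners of the regulators, cytokine signaling, chemokine receptors and genes of the thymic stroma. Of the 46 that were placed (*Gfi1* and *Spi1* were not placed under these names), 18 were in PADs in ESC (39.1%), 30 in NPC (65.2%), 8 in AC (17.4%) and 3 in the thymus (6.52%, against 26.1% of all genes and 6 of the 10 regulators). Non-PAD in all 4 cell types were 14 (20.1% of all genes), and PAD in NPC only were 12 (23.9%). The list shares *Gata2*, *Bcl11a*, *Runx1*, *Il2ra* and *Il2rg* with the paralogs.

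From ESC to thymus 16 of the 46 genes went from PAD to non-PAD, as did 26.5% of all genes. They were *Hes1* and *Notch3* of the Notch pathway, the transcription factor genes *Bcl11a*, *Cbfb*, *Egr1*, *Gata2*, *Hhex*, *Lmo2*, *Nfatc3*, *Sox4*, *Sox13* and *Tal1*, the kinase genes *Jak1* and *Jak3* of cytokine receptors, the survival gene *Bcl2*, and *Foxn1*, the factor of thymic epithelial cells. *Il2ra* was the gene that went the other way (6.06% of all genes did). *Cbfb* encodes the partner of Runx factors and was PAD in ESC, NPC and AC, unlike *Runx3*.

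PAD in all 4 cell types (14.8% of all genes) were 2 of the 46 genes, namely *Il7*, the gene for the ligand of the IL-7 receptor (4.57 Mb from the first called end of Chromosome 3), and *Patz1* (0.176 Mb from that of Chromosome 11). *Il7* and *Il7r* thus had the same calls in all 4 cell types, near the centromeres of different chromosomes. Within the first 20 Mb, 2 of 5 genes of this list and 0 of 3 paralogs were PAD in all 4 cell types. *Il2ra* counts in both lists. The share of all genes in this window was 29.2%. It was 4 of 4 for the regulators, but the window was chosen with their calls known.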

How the data were processed

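Sat4C used ApoI and MfeI, then NlaIII. The authors mapped the reads to the ends of 4C fragments in mm9, leaving out the Y chromosome, with an aligner not given in the sources used here. They classed the reads per end, fitted a hidden semi-Markov model with 2 states per replicate and took the majority call, resolving ties through a virtual replicate made of all reads. The deposited values are the words PAD and nPAD for 4 cell types, not counts, so the depth per sample and its precision are unknown. Samples were grouped by their labels.

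Runs of equal calls formed the domains, and a border was set halfway between the fragment ends on its sides, as in the study's methods. Genes came from GENCODE vM1 (mm9). Of 22380 protein-coding genes, 51 lay outside the called sequence, and the longest transcript, or entry of a name with several, was used. Python 3.11.15, numpy 2.4.6, pandas 2.3.3 and matplotlib 3.10.9 were used, and the domain functions were tested on simulated data.

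The regulators and lists were chosen with earlier results of these data known. Named were all regulators and listed paralogs, list genes that differed between ESC and thymus, up to 3 neighbors with shared domains and the gene beyond the thymus border. The other genes described as PAD in all cell types, the windows of 10 and 20 Mb, the border sequences and the grouping of surroundings by calls were chosen after their values were seen. Alternatives were placement by start site, by overlap, by 50% of the body, by the whole gene or by the nearest end, other borders, runs under 5 ends absorbed, PADs of 1 end or gaps over 100 kb left out, NPC left out and autosomes only. Domain sizes with short runs absorbed, intervals as deposited and the comparison of the NPC calls with the others were added after seeing the data.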

Additional observations from a re-analysis of the deposited data

How the results depend on the processing

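The counts of regulators in PADs in each cell type stayed within 1.5 times the reported count under each alternative that was run. They were not all unchanged. The ESC count was 7 instead of 5 when any overlap with a PAD counted, and the thymus count was 5 instead of 6 by transcription start site. The 2 regulators that were non-PAD in ESC and PAD in the thymus became 1 when genes were placed by transcription start site and 0 when any overlap with a PAD counted, since *Themis* and *Ptprc* are crossed by borders. With NPC left out, the regulators with the same call numbered 7 instead of 4. When any overlap with a PAD counted, 6 had the same call in all 4 cell types. By transcription start site, *Themis* had a signed distance of -91.7 kb to the nearest thymus border (in a non-PAD), against 16.0 kb inside the PAD by midpoint. The shares of gene bodies in PADs moved by at most 5 percentage points. The distances moved by more than the median interval of 2887 bp in 67 of the recomputed values, without a change of call, and did not in 212. Of the 67, 39 came from placement by transcription start site, which moves the point measured from rather than the borders. Borders set at the outer fragment ends of a run gave 14, and intervals as deposited gave 14. With runs under 5 fragment ends absorbed, the ESC non-PAD of *Themis* measured 1352 kb instead of 408 kb, because a PAD of 3 ends and 0.696 kb ended it, and the AC PAD of *Ikzf1* measured 5683 kb instead of 3823 kb. The other 38 domain sizes did not move by more than the median interval. No paired analysis was possible because the calls are 1 consensus per cell type, and for the same reason no replicate could be left out. Fragment ends limit the resolution: the nearest lay between 0.178 kb (*Gata3*) and 8.97 kb (*Lef1*) from a midpoint.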
